A study of Saccharomyces cerevisiae with 5 samples.

Results

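The GAL genes of budding yeast lie at 4 loci, and replication forks were followed through these loci in 5 fitted replication profiles. The 6 genes are GAL7, GAL10 and GAL1, which lie side by side on chromosome II, GAL3 on chromosome IV, GAL2 on chromosome XII and GAL80 on chromosome XIII. They were placed by approximate coordinates in the numbering of the files, at 274 to 281 kb (GAL7-GAL10-GAL1), 463 to 465 kb (GAL3), 290 to 292 kb (GAL2) and 171 to 173 kb (GAL80). Everything within 15 kb of these ranges was taken as the locus, which gave 30 of 2386 windows of 5 kb and 5 of 410 initiation sites. The genome build is not given in the sources used here, so each gene position is only as exact as these rounded ranges. The order of genes, their names and their strand come from the RefSeq table of the yeast genome, used without its coordinates.

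Okazaki fragments, which lagging-strand synthesis leaves before ligation, had been sequenced from asynchronous cultures of Saccharomyces cerevisiae, and the authors fitted fork paths to them. Strain yIW160-SSDDCS, in which galactose induces Sld2, Sld3, Dbf4, Dpb11, Cdc45 and Sld7, was grown in galactose (samples E and G, n = 2) or in glucose (sample F, n = 1). These 3 samples were read single-end by Ion Torrent, and wild type yIW160 (samples A and B, n = 2) paired-end by Illumina. The growth notes, shared by all 5 samples, give 30 degrees, glucose medium at first, then 4 hours in fresh 2% glucose or 2% galactose and 2.5 hours of doxycycline at 40 micrograms per ml. Doxycycline serves in this assay to switch off the DNA ligase that would join the fragments. The medium of the wild-type samples is not among their labels. In galactose the GAL genes are transcribed and the 6 initiation factors are raised in the same cells, so the sugar, transcription of the GAL genes and the raised factors cannot be told apart here. Platform and strain cannot be told apart either. Transcripts were not measured in these files. The labels call E and G, and A and B, replicates and do not say whether they are separate cultures, so p-values cover only the spread among the samples at hand, which may be technical.

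The GAL regulon is the set of genes that lets yeast feed on galactose. Gal2 carries the sugar into the cell, and Gal1, Gal7 and Gal10 turn it into a form that glycolysis can use. Gal3 senses galactose and binds Gal80, the repressor that otherwise holds the activator Gal4 inactive, so that in galactose Gal4 drives the regulon and in glucose the structural genes are shut off. GAL1 and GAL10 share one divergent promoter. The gene next to GAL3 on its left is TRP1, and ARS1, the first chromosomal replication origin to be isolated in yeast, lies beside TRP1. A replication origin sends a fork to each side, and forks from neighbouring origins meet and terminate between them. A fork that moves with the RNA polymerases of a gene is called co-directional, and one that meets them is called head-on.

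Fork direction is given as the share of fork probability that moves rightward, towards higher coordinates. The initiation probability of a site is the fraction of chromosome copies in which the fit starts a pair of forks there. A sample with no site of probability 0.1 or more at a place was set to 0. Depth is unknown, because read counts are not part of the files. Over all 410 sites the fits of galactose E and G held 318 and 342 sites, while glucose F held 279 and the wild-type fits 283 and 311. Summed initiation was 250 and 273 per genome copy in galactose, against 183 in glucose, with wild type at 167 and 185, so a higher initiation probability in galactose is the common case and is the background for the values below. Windows and sites were tested with limma across all 5 samples, and p-values were adjusted by Benjamini-Hochberg over all windows or all sites. The lone glucose sample is assumed there to vary like the other groups.

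At GAL3, the galactose sensor, initiation fell against wild type. The only site within 15 kb lay on chromosome IV at 463060, a mean position over the samples weighted by probability. This is at the left edge of the range given for GAL3 and next to ARS1, which the rule places at 462.6 kb. The site lay inside the range in galactose E (463518) and glucose F (463590), and left of it in wild type A (462862) and B (462696). Its initiation probability was 0.247 in galactose E and 0 in galactose G, against 0.699 in glucose F, 0.841 in wild type A and 0.871 in wild type B. Both galactose samples lay below the other 3. The probability in galactose, 0.123 ± 0.174 (SD, n = 2), was lower by 0.73 than that in wild type, 0.856 ± 0.0211 (SD, n = 2), with a standard error of 0.11 and a limma adjusted p of 0.0241. Against glucose the difference was -0.58 (standard error 0.13) and missed the threshold, with a limma adjusted p of 0.0679. The call against wild type was lost without wild type A (limma adjusted p 0.180), without wild type B (0.189) and on an arcsine scale (0.0702).

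The site at GAL3 stood lowest in galactose among the sites with a probability of at least 0.8 in both wild-type samples. The count was made after the values of this site had been seen, and the rank depends on the cut. Of 45 sites with a probability of at least 0.8 in both wild-type samples, 1 had a galactose mean under 0.25, and it was this one, where the median over the 45 sites was 0.956. The next lowest, on chromosome X at 204105, had a galactose mean of 0.477, with 0 in galactose E and 0.953 in galactose G. Across the genome, both galactose samples lay below the other 3 at 2.68% of the 410 sites and above them at 51.2%. In the samples that list the site at GAL3, it sat 0.918 kb (galactose E), 0.99 kb (glucose F), 0.262 kb (wild type A) and 0.096 kb (wild type B) to the right of the stated place of ARS1.

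The 3 sites outside the GAL loci whose 5 probabilities came nearest to those of the GAL3 site, by Euclidean distance, were on chromosome IV at 555147, chromosome XII at 231208 and chromosome XV at 490352. All 3 were at 0 in both galactose samples. Their glucose values were 0.757, 0.788 and 0.914, and their wild-type values lay between 0.642 and 0.818. None of the 3 reached 0.8 in both wild-type samples, so the ranking above leaves them out. A cut low enough to admit any of them would place that site below the GAL3 site in galactose. At these places a site used in both galactose samples lay 4.20, 8.99 and 6.49 kb away. For the site at GAL3 the nearest such site was 20.959 kb away.

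The sites on both sides of GAL3 stayed in use in galactose. The site on the left, on chromosome IV at 435204, had probabilities of 0.856 and 0.939 in galactose, 0.864 in glucose, with 0.969 and 1 in wild type, and neither comparison passed (limma adjusted p 0.749 against glucose and 0.215 against wild type). The site on the right, at 484019, rose in galactose. Its probability was 0.876 and 1 in galactose E and G, against 0.530 in glucose, while the wild-type values were 0.471 and 0.454, a limma difference of 0.41 from glucose (adjusted p 0.0370) and of 0.47 from wild type (adjusted p 0.0174). Neither call of this site held without wild type A or wild type B (limma adjusted p from 0.144 to 0.198), on the arcsine scale (0.146 and 0.0702) or by the rise of the rightward share across the site (0.225 and 0.0586).

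Fork direction left of GAL3 also differed. In the window from 450001 to 455000, left of GAL3, the rightward share was 96.4% and 99.2% in galactose, 89.7% in glucose, with wild type at 15.5% and 12.9%. Galactose was higher than wild type there by 83.6 percentage points (standard error 2.03, limma adjusted p 0.0102), while glucose F lay with galactose and not with wild type. Wild type A and B had strong terminations at 448497 and 449419, with probabilities of 0.814 and 0.871, where forks from the left met forks leaving the site at GAL3. Glucose F had its nearest strong termination at 458192, with a probability of 0.604. The left site at 435204 started at 5.99 and 10.3 min in wild type A and B, near the GAL3 site (5.53 and 10.8 min). In glucose F the left site started at -1.61 min and the GAL3 site at 4.37 min. In galactose E these starts were -0.446 and 6.54 min, and in galactose G the left site started at -0.656 min. What part the start times had in the change of direction was not tested. Glucose against wild type had a limma adjusted p of 0.0908 in this window and was not called. The next window, from 455001, also rose against wild type (75.5 percentage points, limma adjusted p 0.0183), and the window from 475001 fell (limma adjusted p 0.0371). Without galactose E, or without galactose G, no window of the genome was called. Of these 3, the window from 450001 alone kept its call without wild type A (limma adjusted p 0.0347) and without wild type B (0.0319).

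GAL3 itself is transcribed rightward. At the last position of its range, forks were 89.2% and 93.9% rightward in galactose, 96.4% in glucose, with 92.5% and 94.1% in wild type, so co-directional forks predominated there in every sample and the groups overlapped. At the first position glucose F was 27.5% rightward. In the window that holds GAL3, from 460001, the share was 74.7% and 93.9% in galactose, 53.5% in glucose, with 47.1% and 50.6% in wild type. That window was not called (limma adjusted p 0.183 against glucose and 0.0865 against wild type). The mean over the whole range was lower in galactose E (83.6%) and glucose F (79.4%), where the fitted site lies inside the range. To the right of the gene, galactose G ended nearly all rightward forks at 469018, with a termination probability of 0.939. Galactose E did so at 471099 (0.565) and 475005 (0.216).

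**Figure D1:**
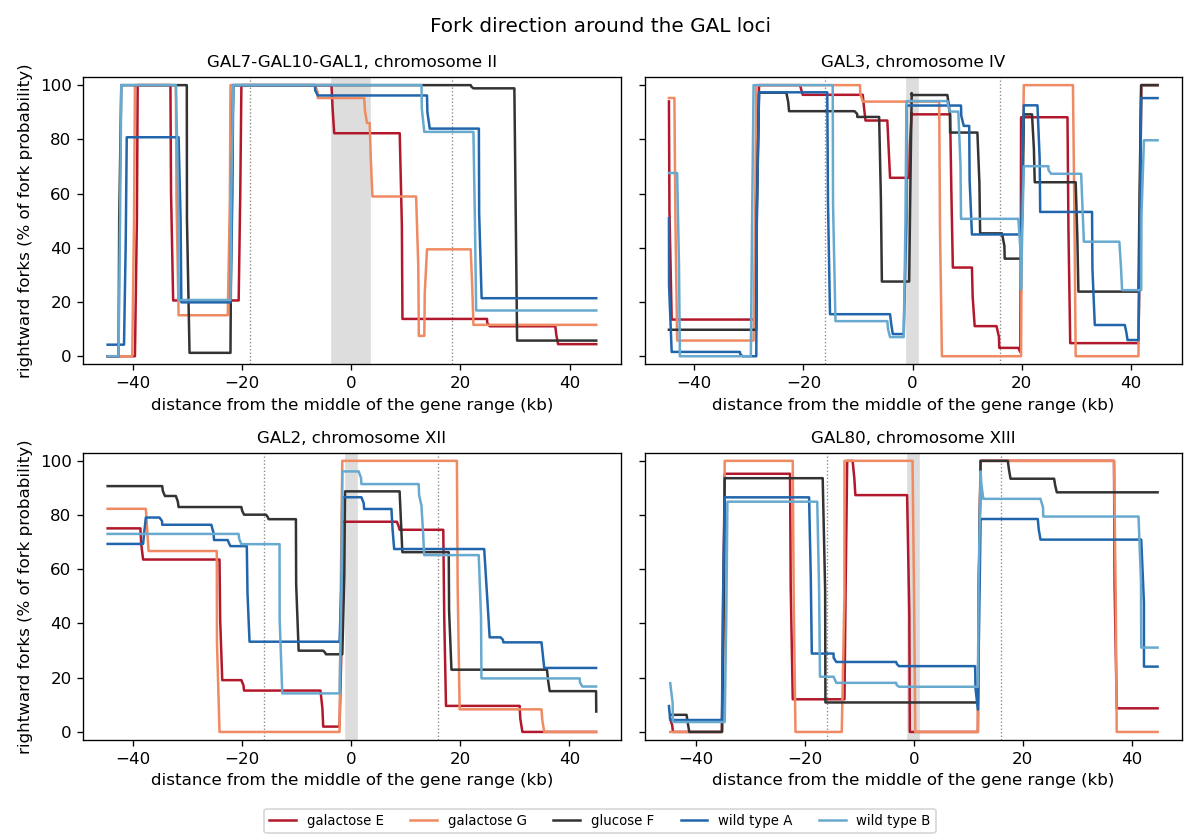
Rightward share of fork probability (percent) against distance from the middle of each gene range (kb), with 1 line per sample, the gene range shaded and dotted lines 15 kb outside it. Steps upward are initiation sites and steps downward are terminations. At GAL80 both galactose lines rise about 12 kb left of the gene and fall inside the shaded range, that of galactose E at its left edge, where the other 3 lines stay flat.

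Beside GAL80, the repressor, galactose had a site where the other samples list none. Chromosome XIII at 159374, 11.626 kb left of the gene range, had an initiation probability of 0.874 in galactose E and 1 in galactose G, and no site was listed there in glucose F or in wild type A and B. The limma difference was 0.94 from glucose (standard error 0.068, adjusted p 0.0102) and from wild type (standard error 0.056, adjusted p 0.00773). Without wild type A or without wild type B the adjusted p rose to 0.101 against glucose, and to 0.0795 and 0.0886 against wild type. The fits without a galactose or a wild-type sample have 1 residual degree of freedom in place of 2.

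The other sites around GAL80 were in use in every sample. The site on its right, at 183948 and 10.948 kb from the gene range, had a probability of 1 in both galactose samples, 0.884 in glucose, while the wild-type values were 0.702 and 0.795. It was higher in galactose than in wild type by 0.25 (standard error 0.043, limma adjusted p 0.0333), a call lost without galactose E (0.201) or galactose G (0.226), and the comparison with glucose missed the threshold (0.246). Farther out on the left, the site at 137163 had 0.946 and 1 in galactose, 0.928 in glucose, with wild type at 0.812 and 0.811 (limma adjusted p 0.517 and 0.0360). The site at 227023 had 0.913 and 1 in galactose, 0.566 in glucose, with 0.660 and 0.608 in wild type (limma adjusted p 0.0302 and 0.0241). The calls of both of these outer sites were lost without wild type A or without wild type B, and those at 227023 also without galactose E or galactose G. On the arcsine scale none of these 3 calls passed (limma adjusted p from 0.0803 to 0.114), and the site at 227023 missed against wild type (0.0709) when measured by how far the rightward share rises there.

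**Figure D2:**
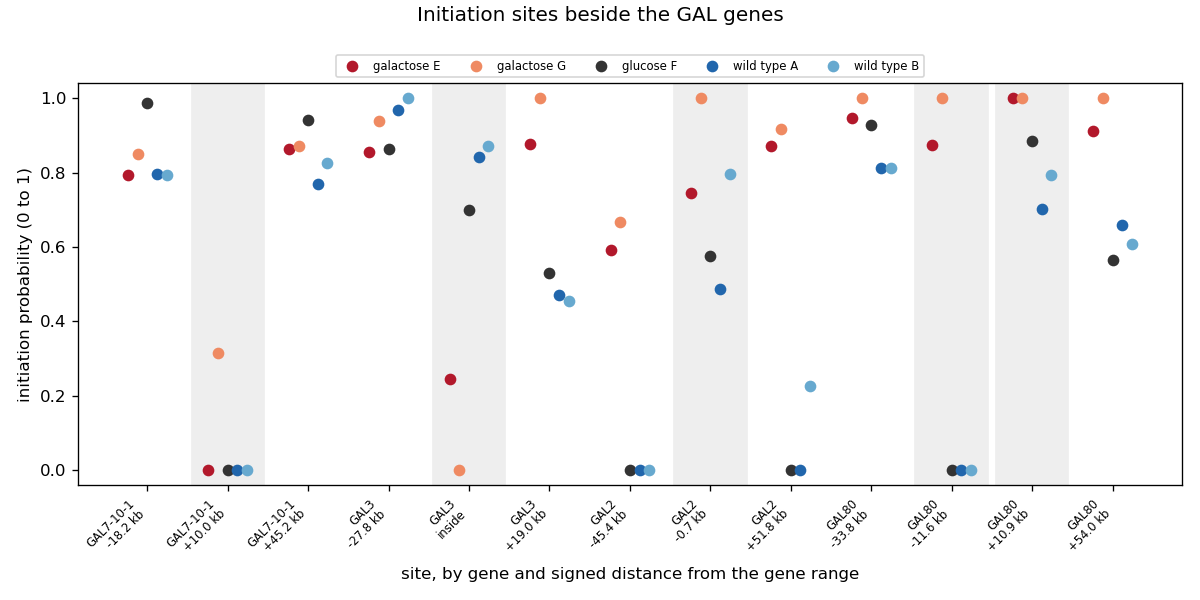
Initiation probability (0 to 1) of every site within 15 kb of the GAL genes (grey bands) and of the next site on each side, with 1 point per sample. Labels give the signed distance of the mean position of each site from the gene range in kb. The site at GAL3 is the one within the bands where both galactose points lie below the other 3. The site 11.6 kb left of GAL80 is at 0 in glucose and wild type.

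Forks met within the range given for GAL80 in galactose. Galactose E had a termination at 171182 with a probability of 0.874 and galactose G one at 172052 with a probability of 1, both inside the gene range. That of galactose E lay close to the left edge of this rounded range, so whether it fell inside the gene is not known. Termination within the range was 0 in glucose F and in wild type A and B. The 2 sites that flank the gene were 24.4 and 24.7 kb apart in galactose, with midpoints at 171.72 and 171.593 kb, against gaps of 46.9, 47.1 and 46.3 kb in glucose and wild type. The fitted forks all travel at 2900 bases per minute, a constant of the authors' fit, so a meeting point between 2 sites follows from their places and start times. In galactose E the flanking sites started at 5.01 and 4.64 min, and in galactose G at 1.16 and 1.47 min.

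Fork direction left of GAL80 reversed between the groups. From 160001 to 165000 the rightward share was 90.2% and 100% in galactose, against 10.9% in glucose, while the wild-type values were 25.8% and 18.1%. From 165001 to 170000 it was 87.4% and 100% in galactose, 10.9% in glucose, with wild type at 25.5% and 17.8%. Both windows rose against glucose, by 84.2 and 82.8 percentage points (limma adjusted p 0.0277 and 0.0341), and against wild type, by 73.2 and 72.1 percentage points (limma adjusted p 0.0202 and 0.0231). None of these 4 calls held without wild type A or wild type B (limma adjusted p from 0.0917 to 0.123), or without galactose E or galactose G (0.103 to 0.128).

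Across the GAL80 range, which is transcribed rightward, leftward and so head-on forks made up 89.1% in glucose, with 75.7% and 83.3% in wild type. In galactose the share switched where the forks met. In galactose E that was at the left edge of the range, and in galactose G near its middle. Galactose E was 87.4% rightward from 165001 to 170000. At the first position of the range, which is the fitted meeting point, it was 43.7%, and at the last 0%. Galactose G went from 100% to 0% across the range. The means over the range, 8.74% and 50% rightward, straddled those of the other samples, and the window that holds the gene was not called (limma adjusted p 0.407 against glucose and 0.520 against wild type).

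GAL2, the transporter gene, lay beside a site that every sample used. This site, on chromosome XII at 289306 and 0.694 kb left of the gene range, had probabilities of 0.746 and 1 in galactose, 0.577 in glucose, while the wild-type values were 0.487 and 0.795. Galactose E lay below wild type B, and neither comparison passed (limma adjusted p 0.449 against glucose and 0.396 against wild type). GAL2 is transcribed rightward, and forks over it were mostly co-directional in every sample. The rightward share over its range was 77.5% and 100% in galactose, 88.7% in glucose, with wild type at 86.6% and 96.1%, and the galactose values lay on both sides of the rest. None of its 7 windows was called in either comparison.

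The next sites outward from GAL2 were higher in galactose. Chromosome XII at 244578 had 0.592 and 0.667 in galactose and no site in the other 3 samples (limma adjusted p 0.00983 against glucose and 0.00726 against wild type). Chromosome XII at 343757 had 0.871 and 0.917 in galactose, 0.227 in wild type B and no site in glucose F or wild type A (limma adjusted p 0.0273 and 0.0190). The first pair of calls was lost without wild type A or wild type B, and the second without galactose E or galactose G and on the arcsine scale (0.0676 and 0.0597). Forks left of GAL2 were more leftward in galactose, with 15.3% and 0% rightward from 275001 to 280000 against 78.7% in glucose, with 33.3% and 46.7% in wild type, which missed the threshold (limma adjusted p 0.0574 and 0.104).

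The GAL7-GAL10-GAL1 cluster, which holds the 3 enzyme genes, had no site within 15 kb in galactose E, glucose F or either wild-type sample. Galactose G had one on chromosome II at 290955, 9.955 kb right of the range, with a probability of 0.315, and neither comparison passed (limma adjusted p 0.627 and 0.416). The cluster was copied mainly by forks from the left. The site on that side, at 255797, had 0.794 and 0.849 in galactose, 0.987 in glucose, while the wild-type values were 0.796 and 0.793 (limma adjusted p 0.0637 against glucose and 0.484 against wild type). The site on the far right, at 326169, had 0.862 and 0.873 in galactose, 0.942 in glucose, with wild type at 0.770 and 0.824 (limma adjusted p 0.270 and 0.175).

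Over the cluster itself, rightward forks made up 82.8% and 93.7% in galactose, 100% in glucose, with 96.2% and 100% in wild type. Both galactose values lay below the other 3, as they did in 6 of the 9 windows of this locus and in 26.4% of all windows. These forks ran head-on to GAL7 and GAL10, which are transcribed leftward, and with GAL1, which is transcribed rightward. The window at the middle of the cluster was not called (limma adjusted p 0.413 against glucose and 0.326 against wild type).

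Right of the cluster the direction changed more. From 290001 to 295000 the rightward share was 13.8% and 32.2% in galactose, against 100% in glucose, while the wild-type values were 87.9% and 85.1%. It fell by 77.0 percentage points from glucose (limma adjusted p 0.0474) and fell by 63.5 from wild type (limma adjusted p 0.0365). From 285001 to 290000 it was 35.6% and 51.9% in galactose, 100% in glucose, with wild type at 96.2% and 100%, which passed against wild type (limma adjusted p 0.0382) and not against glucose (0.0605). These calls were lost without wild type A or wild type B (limma adjusted p from 0.175 to 0.192) and without galactose E or galactose G (0.0997 to 0.128).

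In galactose, forks met closer to the cluster. The rightward share fell through 50% at 286.898 kb in galactose E and 289.993 kb in galactose G, against 307.749 kb in glucose, with 300.954 and 300.25 kb in wild type. Galactose E had terminations at 274076, inside the range, with a probability of 0.177, and at 286762 with 0.685. Galactose G had them at 281072, at the right edge of the range, with 0.267, and at 289771 with 0.507. Within 15 kb of the cluster, termination summed to 0.862 and 0.919 in galactose, 0 in glucose, while the wild-type values were 0.164 and 0.175. The start times of the sites at 255797 on the left and 326169 on the right also differed. In galactose G the weaker site at 290955 lay between these 2 and started at 10.2 min. The left site started at 3.57 and 4.74 min in galactose and the right one at 0.179 and 4.11 min, where in glucose the left started at 1.44 and the right at 12.9 min. In wild type the left site started at -1.78 and 0.236 min and the right one at 5.17 and 6.73 min. Time 0 is each sample's own earliest averaged position, so these minutes share no common zero between samples.

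**Figure D3:**
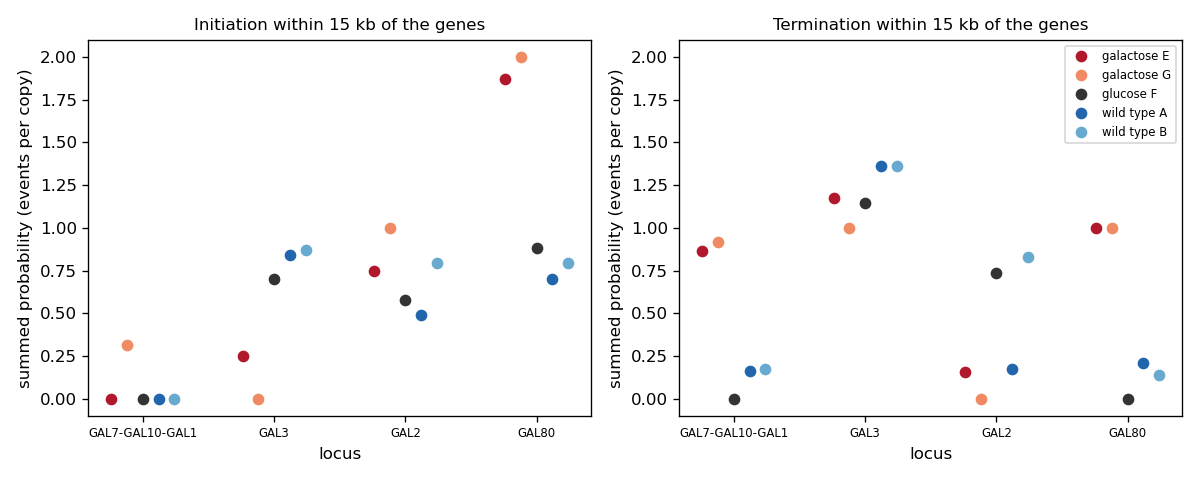
Summed initiation (left) and termination (right) probability within 15 kb of each locus, in events per copy, with 1 point per sample. Galactose lies apart from the other 3 samples for initiation at GAL3 and GAL80 and for termination at the cluster, GAL2 and GAL80. At GAL2 the gap is narrow, with 0.157 in galactose E against 0.173 in wild type A. How often the groups lie apart in stretches of this length over the genome was not counted.

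Summed over the 15 kb on each side, the loci did not move one way. For the length of the GAL2, GAL3 and GAL80 loci, the genome mean of initiation was 0.663 and 0.725 in galactose and 0.486 in glucose. In wild type it was 0.445 and 0.491. The genome mean of termination was 0.621 and 0.682 in galactose, 0.444 in glucose, with 0.403 and 0.449 in wild type. Initiation at GAL80 was 1.87 and 2 per copy in galactose, against 0.884 in glucose, with wild type at 0.702 and 0.795, all of it more than 10 kb from the gene range. At GAL3 it was 0.247 and 0 against 0.699, 0.841 and 0.871. Termination at GAL80 was 0.996 and 1 in galactose, 0 in glucose, with 0.208 and 0.139 in wild type. At GAL2, termination was 0.157 and 0 in galactose against 0.733, 0.173 and 0.832, a difference whose sign turned within 20 kb of the gene. At GAL3 termination was 1.17 and 0.998 in galactose, 1.14 in glucose, while the wild-type values were 1.36 and 1.36, and the groups overlapped, with the sign of the difference turning within 10 kb. An exact two-sided permutation test of the 2 galactose samples against the other 3 gave 0.1, the smallest p this design allows, for termination at the cluster, initiation at GAL3, and initiation and termination at GAL80. Adjusted over the 8 tests, these 4 had a p of 0.2. The other 4 exact permutation p-values lay between 0.2 and 0.4.

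Counted over the loci in 5 kb windows, the shares called for fork direction lay near those of all windows. Galactose differed from glucose in 3 of the 30 windows, 2 higher and 1 lower, where 11.8% of all windows did, 5.83% higher and 5.95% lower. Galactose differed from wild type in 7 of the 30 windows, 4 higher and 3 lower, where 18.4% of all did, 9.35% higher and 9.09% lower. Without regard to any test, both galactose samples lay above the other 3 in 7 of the 30 windows (23.7% of all windows) and below them in 13 of the 30 (26.4% of all windows). The median size of the change was 16.5 percentage points in the 30 windows and 10.4 in all windows against glucose, and 17.9 and 12.1 against wild type. Among the 5 sites, 1 differed from glucose and was higher, where 29.3% of all sites differed, 24.4% higher and 4.88% lower. Against wild type 3 differed, 2 higher and 1 lower, where 40% of all sites did, 35.6% higher and 4.39% lower. Glucose and wild type differed by limma in 0 of the 30 windows (0% of all windows) and in 0 of the 5 sites (2.93% of all sites). An unadjusted limma p under 0.05 was reached by 4 of the 30 windows (443 of all 2386) and 0 of the 5 sites (96 of all 410).

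At the GAL7-GAL10-GAL1 cluster, fitted times were later in both galactose samples than in the other 3. The authors' mean time there was 11.997 min in galactose E and 13.2 min in galactose G, 9.14 min in glucose, with wild type at 7.41 and 9.25 min. Set against the median of each sample, the cluster was late in galactose, by 3.55 and 4.01 min, and early in the others, at -2.76 min in glucose, with -5.04 and -4.14 min in wild type. In galactose, 75.6% and 72.0% of all positions had an earlier time than the cluster, against 34.5% in glucose, while the wild-type values were 22.7% and 28.6%. By rank within the sample, all 9 windows of this locus were later in both galactose samples than in the other 3, as were 20.5% of all windows. In minutes, 7 of the 9 windows were, against 8.05% of all. None of these windows passed the limma test, which took the minutes with each sample's own zero (adjusted p 0.412 against glucose and 0.211 against wild type in the middle window). With the median of each sample taken off first, none passed either, and the middle window had a limma adjusted p of 0.237 against glucose and 0.0815 against wild type. Counts by rank were made after the values had been seen.

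**Figure D4:**
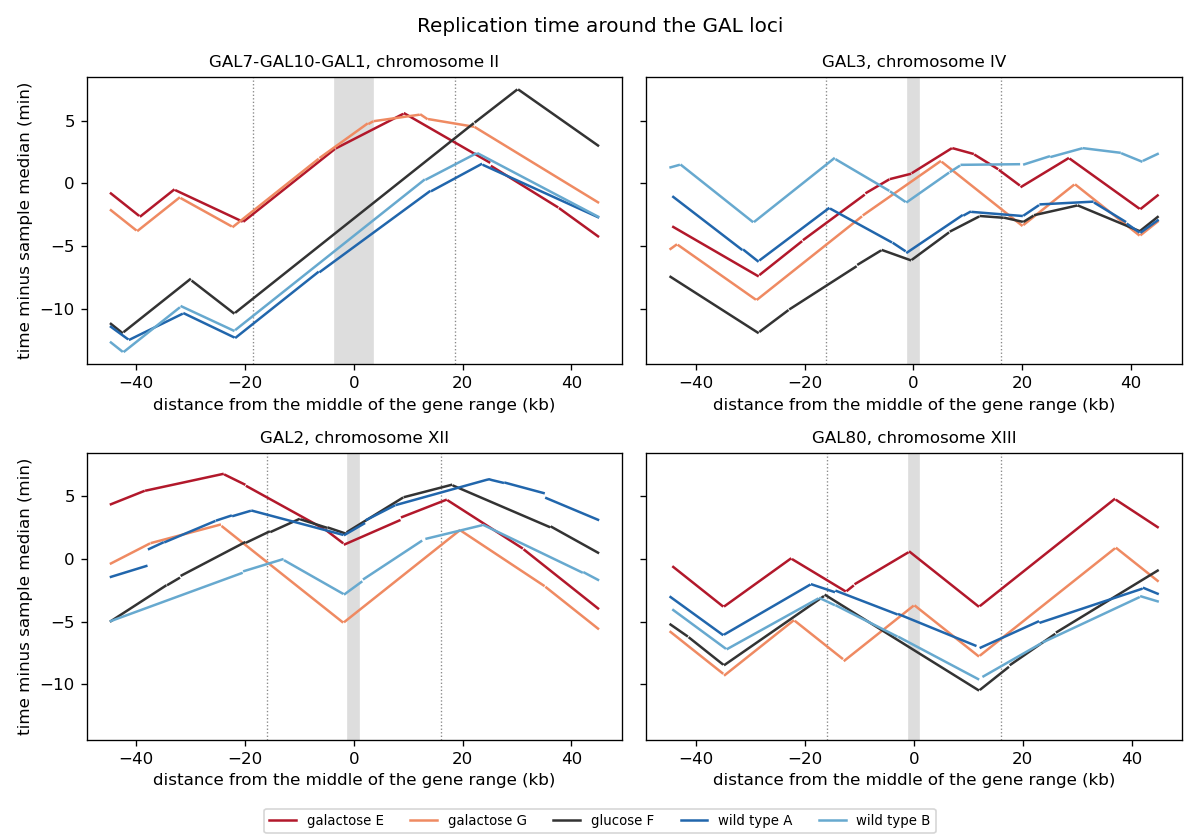
Authors' fitted mean time minus the median of the same sample (min) against distance from the middle of each gene range (kb), with 1 line per sample, the gene range shaded and dotted lines 15 kb outside it. Valleys are initiation sites. Over the GAL7-GAL10-GAL1 range both galactose lines lie above 0 and the other 3 below it.

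At the other loci the order of the groups in time depended on its zero. GAL3 had 9.38 and 9.54 min in galactose, 5.96 min in glucose, with wild type at 7.31 and 12.3 min, which overlap. Set against the sample medians, GAL3 lay at 0.935 and 0.299 min in galactose, -5.94 min in glucose, with -5.14 and -1.09 min in wild type, so both galactose samples were later than the other 3. They were also later by rank, with 57.8% and 52.1% of positions earlier in galactose, 17.6% in glucose, while the wild-type values were 22.2% and 44.4%. GAL80 had 8.75 and 5.39 min in galactose, 4.63 min in glucose, with 7.55 and 6.53 min in wild type, which overlap. Set against the medians it lay at 0.303 and -3.85 min in galactose, -7.27 min in glucose, with wild type at -4.90 and -6.86 min. By rank, 52.6% and 25.1% of positions were earlier in galactose, 11.2% in glucose, with 23.3% and 16.8% in wild type, so on both of these scales both galactose samples were again later than the other 3. Counted in windows by rank, both galactose samples were later in 2 of the 7 windows at GAL3 and 1 of the 7 at GAL80. The share of all windows was 20.5%, so these 2 loci did not stand out from the genome. GAL2 was earlier in minutes in both galactose samples, at 9.96 and 4.86 min, than in glucose (14.4 min) and wild type (14.8 and 11.2 min), as all 7 windows of its locus were and 40.5% of all windows, but by rank the groups overlapped, with 62.1% and 21.4% of positions earlier in galactose, 62.8% in glucose, while the wild-type values were 64.4% and 37.9%. Across the 4 loci, limma on the minutes as given called 0 of the 30 windows for time against glucose (7.63% of all windows). Against wild type it also called 0 (7.8% of all windows). An unadjusted limma p under 0.05 was reached by 0 of the 30 against glucose (631 of all 2386). Against wild type 1 of the 30 reached it (715 of all 2386). With the sample medians taken off, limma called 0 of the 30 in both comparisons. It then called 4.57% of all windows against glucose and 0% against wild type. An unadjusted limma p under 0.05 was then reached by 4 and 7 of the 30, all of them adjoining windows at the GAL7-GAL10-GAL1 cluster. Adjoining windows share fitted forks and are not separate evidence. The share of all windows at this unadjusted level is not given, so no comparison with the genome is drawn from it.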

How the data were processed

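Okazaki fragments of 5 samples were analysed from the authors' fitted fork paths. Per the labels, the deposited tables give line segments and sampled points with times in minutes (a score on a scale of the fit) and probabilities as a fraction from 0 to 1, and a weighted mean time per position. The sources used here do not give the aligner, the build or the fitting program. The members, lists and most limits were chosen with earlier results of these data known.

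At each node of the paths, the net of forks leaving over arriving gave initiation, and the reverse termination, as the mean of the rightward and leftward nets (the mean gave 410 sites, the smaller net 406 and the larger 415, all 3 computed before the mean was kept). Sites of at least 0.1 within 2500 bp were joined. Shares and times were averaged in 5 kb windows holding at least 50% of their positions.

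Tests across the genome came from lmFit and eBayes of limma 3.58.1 (R 4.3.3; 3 groups, 2 residual degrees of freedom, two-sided, Benjamini-Hochberg threshold 0.05), tested on simulated data. Summed values used exact permutation tests. Tables were made in Python 3.11.15 (pandas 2.3.3, numpy 2.4.6) and figures in matplotlib 3.10.9. Named are all 6 genes, every site within 15 kb, the next site beyond 15 kb on each side, and the 3 sites nearest in profile to that at GAL3. The rule read "nearest site on each side", and taking it beyond 15 kb was decided with the data seen. The other genes of the GAL pathway were not placed, for want of an annotation of the files' numbering. Alternatives were window length and position, scale, joining distance, minimum and estimate of the site probability, distance from the genes, Ion Torrent samples only and leaving out each sample.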

Additional observations from a re-analysis of the deposited data

How the results depend on the processing

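With so few samples the counts of calls hang on single samples, and read depth, which the files do not give, sets a further limit that could not be measured. No paired analysis was possible because the labels give no replicate numbers. Of the fork-direction windows at the loci, 10% were called against glucose and 23.3% against wild type. Windows of 10 kb gave 23.5% and 35.3%, beside 16.3% and 24% of all such windows, and Ion Torrent samples alone 3.33% against glucose, beside 9.18% of all. Leaving out 1 sample gave 0 to 10% and 0 to 23.3%, with 0% (and 0 of all 2386 windows) without galactose E or G. The fit without glucose F gave the main fit's limma adjusted p against wild type at each called window, so its 23.3% is no check on that comparison. The share of all windows is not given for the fits without wild type A or B. Of the 5 sites, 20% were called against glucose, 60% against wild type and 0% for glucose against wild type. The shares of all 410 sites were 29.3%, 40% and 2.93%. With 1 sample left out, the shares of the 5 sites changed in each of these comparisons. The share of all sites is not given for these other settings, so no comparison with the rest of the genome is drawn from them. A minimum probability of 0.3 gave 40% against glucose, where the GAL3 site then passed (limma adjusted p 0.00335), as it did without galactose E (0.0263). The termination difference between galactose and the other 3 turned to 0.334 at GAL3 within 10 kb and to 0.0372 at GAL2 within 20 kb. Initiation at the cluster came to no difference without galactose G, the one sample with a site there, and initiation at GAL80 was 0 in every sample within 10 kb, since both of its sites lie farther out. The remaining sums kept their direction.

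Among single windows and sites, 20 values turned sign, and none of them was called in the form reported. With 1 sample left out, fork direction in galactose against wild type ran from -11.7 to 10.7 points at GAL2 (including 3.97) and from -0.614 to 20.4 at GAL80, and in glucose against wild type from -5.02 to 3.94 at GAL2. Time against wild type ran from -3.12 to 1.81 min at GAL3 and from -1.82 to 1.56 min at GAL80 (including 0.392). The site IV 435204 ran from -0.00797 to 0.0752 against glucose, and XII 289306 from -0.218 to 0.0895 for glucose against wild type. Windows of 10 kb gave 1.75 points at GAL2 and -4.55 at GAL80 for galactose against wild type, and 1.83 at GAL2 for glucose against wild type. At GAL3, shifted windows gave -0.208 and -7.26 points in these comparisons, and 2.5 kb windows -14.2 in the second. GAL2 turned to 0.0796 on the arcsine scale for galactose against wild type. Centred on the median, time against wild type was 3.38 min at GAL3 and 3.91 min at GAL80. The site II 255797 turned to -0.37 against wild type when joined within 1000 bp, and XII 343757 to 0.0481 by the rise in rightward share for glucose against wild type. The cause was not tested. Shifted windows and the other estimates of the site probability were chosen after seeing the data.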
